A study of Mus musculus with 4 samples.

Results

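Enamel is built by ameloblasts, the epithelial cells that cover the forming tooth crown, out of a secreted protein matrix that is then cut up and replaced by mineral. The transcripts described here are those of 7 genes: Amelx, Ambn and Enam, which encode the matrix proteins amelogenin, ameloblastin and enamelin, Amtn and Odam, which encode the ameloblast adhesion proteins amelotin and ODAM, and Mmp20 and Klk4, which encode the proteases that process and remove the matrix. They were taken by symbol from the 24972 rows of the deposited gene table, and all 7 were found. Ameloblasts are known to make amelogenin, ameloblastin, enamelin and MMP20 mainly in the secretory stage, and KLK4, amelotin and ODAM mainly in the later maturation stage.

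RNA came from the mandibular dental arch, the lower jaw region that carries the teeth, dissected from mouse embryos of embryonic day 17.5. The study compared 2 libraries that are wild type at Ascl5, a gene for a basic helix-loop-helix transcription factor (Ascl5WTWT, codes 15 and 20), with 2 libraries homozygous for a variant of that gene (Ascl5MutMut, codes 18 and 14, called mutant here). The codes are sample names, not ages. The labels give no strain. They do not say what the variant changes or how it was made, and do not say whether a library is 1 embryo or a pool. Here p-values reflect only how much these particular libraries scatter, part of which may be technical. Those from limma also borrow the scatter of other genes in these libraries.

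The values are the authors' normalized counts, which summed to between 22134483 and 22578580 per library. Ascl5 was at 21.8 (wild type 15), 37.3 (wild type 20), 10.6 (mutant 18) and 12.1 (mutant 14), and the labels do not say whether the variant should lower its transcript. All 3 fixed odontoblast markers (Dspp, Dmp1 and Nes) and all 7 epithelial markers were above 0 in every library. Wild-type library 15 was the one library with high Xist (38619 against 5.005 to 12.7) and with Ddx3y at 0 (against 2382 to 3027), so the wild-type libraries differed from each other in sex, and wild type 20 matched both mutant libraries. Mutant library 14 held most of the salivary gland transcripts (a sum of 5961 over 6 markers, against 4.98 to 44.9 elsewhere; 2 of the 6 were above 0 in every library) and the highest sum over 5 keratinocyte markers (173578, against 44676 to 104532).

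Just upstream of 5 of these genes the DNA shared a short run of letters. The sequences are shown because the matrix and adhesion genes had that run in common and the protease genes did not hold it. Each line gives the 120 bases before the transcription start annotated by RefSeq (build GRCm38.p6, for which all 7 genes had an entry), 5′ to 3′ on the strand of the gene, and capitals mark the run TGATTGG. The windows are chrX:169187210-169187329 on the minus strand for Amelx and, on the plus strand, chr5:88455871-88455990 for Ambn, chr5:88487855-88487974 for Enam, chr5:88375988-88376107 for Amtn, chr5:87884890-87885009 for Odam, chr9:7628111-7628230 for Mmp20 and chr7:43881040-43881159 for Klk4.
Amelx: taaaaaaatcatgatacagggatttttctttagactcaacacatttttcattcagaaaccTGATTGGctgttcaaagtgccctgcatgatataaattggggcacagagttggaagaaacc
Ambn: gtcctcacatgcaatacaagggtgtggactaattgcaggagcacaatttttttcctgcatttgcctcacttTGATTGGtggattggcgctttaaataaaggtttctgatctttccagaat
Enam: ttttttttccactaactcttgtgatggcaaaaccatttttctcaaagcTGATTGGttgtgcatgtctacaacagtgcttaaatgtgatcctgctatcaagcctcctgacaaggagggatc
Amtn: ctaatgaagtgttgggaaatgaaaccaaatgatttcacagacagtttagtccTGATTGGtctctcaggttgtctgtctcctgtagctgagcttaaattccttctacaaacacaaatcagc
Odam: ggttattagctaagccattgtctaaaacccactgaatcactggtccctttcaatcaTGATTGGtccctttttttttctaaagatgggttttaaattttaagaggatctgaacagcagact
Mmp20: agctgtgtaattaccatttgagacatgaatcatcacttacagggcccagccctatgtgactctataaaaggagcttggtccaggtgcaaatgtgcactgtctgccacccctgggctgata
Klk4: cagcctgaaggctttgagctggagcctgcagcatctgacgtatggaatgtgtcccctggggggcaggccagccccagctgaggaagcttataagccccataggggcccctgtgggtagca

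The run TGATTGG holds ATTGG, the other strand of the CCAAT motif, and it began 60 bases before the start of Amelx, 49 before Ambn, 72 before Enam, 68 before Amtn and 64 before Odam, in the same orientation each time. It was searched on both strands after these sequences had been read, and 5.15% of 32851 RefSeq promoter windows of 120 bases hold it. ATTGG alone was in 21.3% of them. The E-box CANNTG, the kind of motif that basic helix-loop-helix factors bind, was present within 250 bases of the start in 5 of the 7 genes (Amelx, Ambn, Amtn, Mmp20 and Klk4) and in 66.2% of all promoters. Within the same 250 bases, the E-box form CAGCTG was found upstream of Klk4 only among the 7, and in 13.0% of all promoters. Also within 250 bases, TATAAA was found upstream of Amelx, Enam and Mmp20 (12.4% of promoters), TAATTG upstream of Ambn and Odam (7.17%) and TGTGGT upstream of Odam (14%). Of these, the match in Enam and those in Odam lie outside the 120 bases printed. All were searched on both strands, and matches can overlap: every CAGCTG is a CANNTG, and every TGATTGG holds ATTGG. A match is a description of the letters and not a measured binding site.

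**Figure D1:**
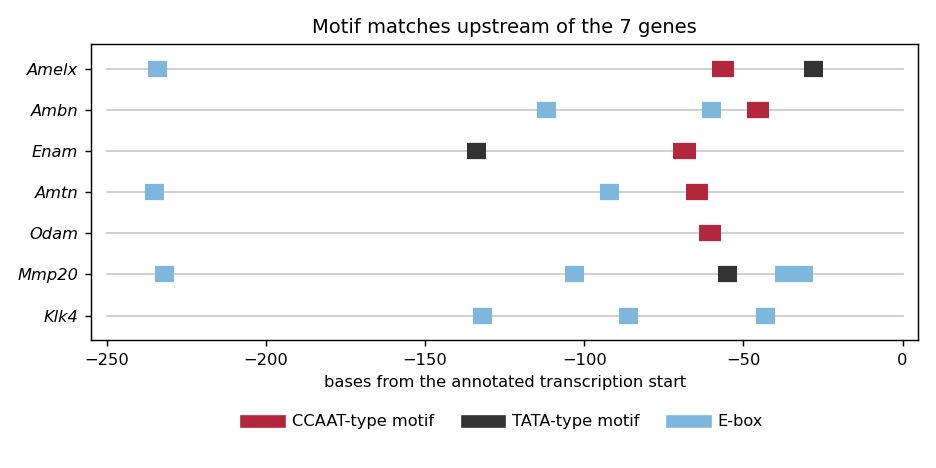
Each row is one gene, the horizontal axis is the distance in bases from the annotated transcription start, and coloured blocks are matches drawn to scale on either strand: the CCAAT-type run in red, the TATA-type motif in black and the E-box in blue. The red block lies between 72 and 43 bases before the start in Amelx, Ambn, Enam, Amtn and Odam, and is missing from the rows of Mmp20 and Klk4.

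On chromosome 5 lie 4 of the genes (GRCm38, the assembly that mm10 denotes). In order these are Odam (87885010 to 87894809), Amtn (88376108 to 88385916), Ambn (88455991 to 88468531) and Enam (88487975 to 88506049), all on the plus strand. Ambn and Enam are neighbours, 19443 bases apart, and Amtn is the next protein-coding gene before Ambn. Amelx lies on chromosome X (169176114 to 169187209) on the minus strand, inside Arhgap6, which is on the plus strand and shares 0 exonic bases with it. Arhgap6 was at 286, 229.99, 269 and 328 in libraries 15, 20, 18 and 14, a pattern unlike that of Amelx. Mmp20 lies on chromosome 9 (7628231 to 7674968) and overlaps the lncRNA AV064505, which was listed at 0 in all 4 libraries. Klk4 lies on chromosome 7 (43881160 to 43885804), next to Klk5. Jchain, the neighbour of Enam on its other side, was at 1.01 to 5.68, far below Enam.

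Amelx, which encodes amelogenin, the main protein of secretory enamel, had normalized counts of 263 (wild type 15), 1621 (wild type 20), 2421 (mutant 18) and 868 (mutant 14). The genotypes overlapped, since mutant 14 lay between the 2 wild-type libraries. Values of the other genes are given in this order of libraries, wild type against mutant. The fitted log2 fold change, mutant minus wild type, was 1.15 (SE 0.78, limma, adjusted p = 0.9999). Without wild-type library 15 it turned to -0.16, and without wild-type library 20 it was 2.46. It was 0.41 without mutant 18 and 1.89 without mutant 14. Library 15, the lowest for this X-linked gene, is also the library with high Xist, so a fit with sex as a covariate leaves that library no weight in the genotype term and gives the same -0.16.

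Ambn, which encodes ameloblastin, a matrix and cell adhesion protein, was at 802 (wild type 15), 2491 (wild type 20), 1383 (mutant 18) and 540.0 (mutant 14). Wild-type library 20 was the highest and mutant 14 the lowest, with the other two between them in crossed order. The log2 fold change was -0.71 (SE 0.56, limma, adjusted p = 0.9999). It was -1.53 without wild type 15, 0.11 without wild type 20, -1.39 without mutant 18 and -0.032 without mutant 14.

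Enam, which encodes enamelin, the largest of the matrix proteins, was at 175 and 1489.5 (wild type) against 1570.2 and 232 (mutant). Libraries 20 and 18, 1 of each genotype, were nearly equal, and libraries 15 and 14 lay far below them. The log2 fold change was 0.24 (SE 1.07, limma, adjusted p = 0.9999), and it ran from -1.30 without wild type 15 to 1.78 without wild type 20. Without mutant 18 it was -1.14 and without mutant 14 it was 1.62.

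The adhesion genes shared their order of the upper libraries. Amtn, which encodes amelotin, a protein of the layer between ameloblast and enamel, was at 6.32 and 57.0 (wild type) against 24.8 and 8.11 (mutant). Odam, which encodes another protein of that layer, was at 50.5 and 147 (wild type) against 84.0 and 44.6 (mutant). Both were highest in wild type 20 and next highest in mutant 18, and in both the genotypes overlapped. Their log2 fold changes were -0.42 (SE 0.99) and -0.49 (SE 0.53), each with an adjusted p of 0.9999 (limma). Amtn turned to 1.11 without wild type 20 and to 0.35 without mutant 14, and was -1.96 without wild type 15 and -1.20 without mutant 18. Odam turned to 0.27 without wild type 20, and was -1.26 without wild type 15, -0.95 without mutant 18 and -0.040 without mutant 14.

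The proteases had the lowest log2 fold changes of the 7 genes. Mmp20, which encodes enamelysin, the protease of the secretory stage, was at 45.7 and 144 (wild type) against 61.8 and 10.1 (mutant), so that mutant 18 lay between the wild-type libraries and mutant 14 below both. Its log2 fold change was -1.67 (SE 0.84, limma, unadjusted p = 0.0836, adjusted p = 0.9999). It was -2.49 without wild type 15, -0.85 without wild type 20, -2.95 without mutant 18 and -0.39 without mutant 14. Klk4, the kallikrein of the maturation stage, was at 9.42 and 26.6 (wild type) against 6.67 and 1.02 (mutant). Both mutant libraries lay below both wild-type libraries, and the value in mutant 14 is about that of 1 read if the commonest low value of the library (1.01) stands for 1 read. The log2 fold change of Klk4 was -2.31 (SE 0.92, limma, unadjusted p = 0.0365, adjusted p = 0.9999). It depends on the number added before taking logs, and was -2.11 with 1 and -2.54 with 0.1 in place of 0.5. Without 1 library it ran from -3.44 (without mutant 18) and -3.04 (without wild type 15) to -1.59 (without wild type 20) and -1.19 (without mutant 14).

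**Figure D2:**
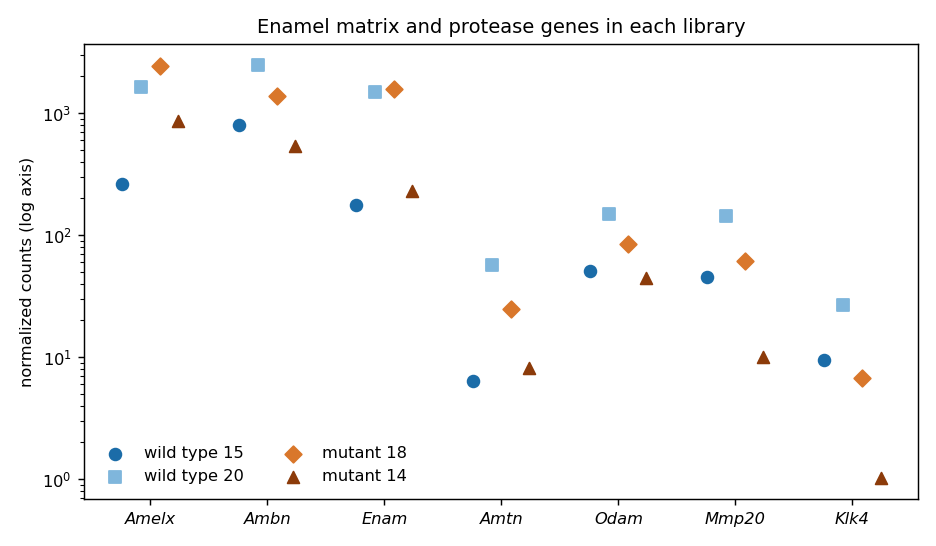
Normalized counts on a log axis for each of the 7 genes, with 1 point per library: wild type 15 (circle), wild type 20 (square), mutant 18 (diamond) and mutant 14 (triangle). Wild type 20 is above wild type 15, and mutant 18 above mutant 14, for every gene, and the genotypes are apart only for Klk4, where the mutant points are at 6.67 and 1.02 and the wild-type points at 9.42 and 26.6.

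All 7 genes passed the filter on low values (a mean of at least 1), and 0 of the 7 passed the threshold of 0.05 on the adjusted p (limma), where 0.0111% of the 17979 tested genes did. At an unadjusted p under 0.05 there was 1, Klk4, and 4.27% of tested genes were under it. That p depends on how far variances are borrowed from other genes, since the residual SD of Klk4 itself was 1.34 and its SE 0.92. The unadjusted p of Klk4 was 0.0863 in limma without the variance trend, where 0 members were under 0.05. It was 0.0265 in limma with robust variances. Klk4 was also the one member whose genotypes did not overlap, where 27.4% of tested genes did not overlap. With 7 genes, counts of 1 are not read as a result about the members. Amelx and Enam had log2 fold changes above 0 and the other 5 below 0, with a median of -0.49 over the 7 and 0.0025 over all tested genes.

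Libraries of the same genotype differed widely in these genes, and in wild type the 2 libraries differed in sex too, whose part was not tested. Every one of the 7 genes was higher in wild type 20 than in wild type 15 and higher in mutant 18 than in mutant 14, as 28.1% of tested genes were. The log2 difference between the wild-type libraries ran from 1.45 (Klk4) to 3.09 (Enam), where the median size of that difference over all tested genes was 0.23. Between the mutant libraries it ran from 0.91 (Odam) to 2.76 (Enam), with the same median of 0.23 over all tested genes. Of the 17979 tested genes, 103 had both differences at least as large as the smallest seen among the members. These 7 are among the 103 by construction, since both cutoffs came from their own values. The residual SD of Enam within genotypes was 2.07 on the log2 scale, and 0.929% of tested genes had a larger one. At the other end, the residual SD of Odam was 0.89, and 8.47% of tested genes had a larger one. In 6 of the 7 genes, all but Klk4, libraries 20 and 18 were the highest and next highest in either order, as in 22.1% of tested genes. In dissected bulk tissue, fewer ameloblasts and less RNA per ameloblast cannot be told apart.

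**Figure D3:**
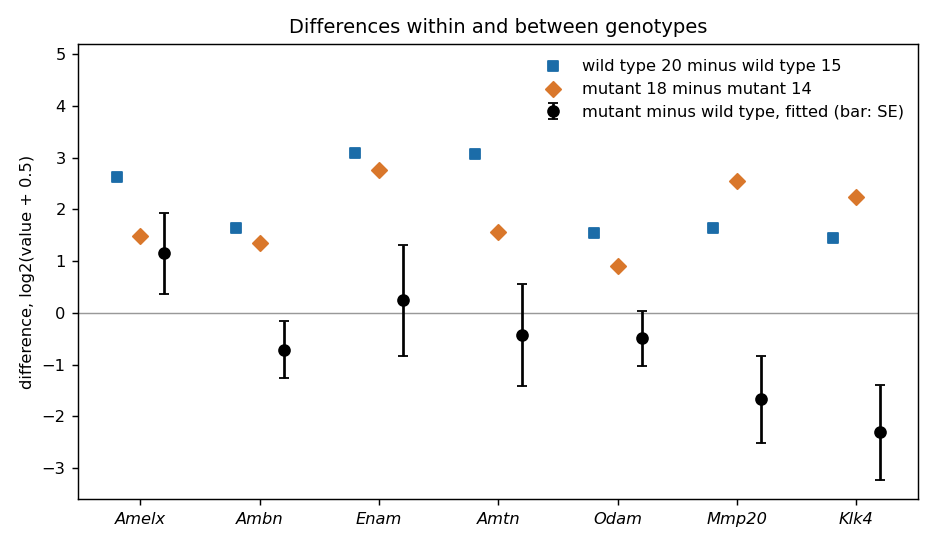
Differences on the log2(value + 0.5) scale for each gene: wild type 20 minus wild type 15 (blue squares), mutant 18 minus mutant 14 (orange diamonds) and the fitted difference mutant minus wild type with its SE (black points and bars). All blue and orange points are above 0, from 0.91 to 3.09, while the black points run from -2.31 for Klk4 to 1.15 for Amelx.

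Levels of different genes were compared after division by the length of their exons (GENCODE M21, union of transcripts). Per kb, Amelx was at 263 and 1623 (wild type) against 2423 and 869 (mutant), and Ambn at 418 and 1298 (wild type) against 720.5 and 281 (mutant). Ambn thus exceeded Amelx in wild type 15, while Amelx exceeded Ambn in the other 3 libraries. Enam was at 31.8 to 286 per kb. Averaged over the 4 libraries, the order per kb was Amelx (1295), Ambn (679.6), Enam (158), Odam (59.3), Amtn (23.5), Mmp20 (19.9) and Klk4 (8.76). The ranges over libraries of neighbours in that order overlapped in every case (Odam ran from 32.4 to 107 and Amtn from 6.18 to 55.8, for example), but these ranges hold the differences between libraries, so neighbours were compared within each library. Ambn was above Enam by 1.33 to 3.72 on the log2 scale of counts per kb (mean 2.51 ± 0.99, SD, n = 4), Odam above Amtn by 0.94 to 2.57 (1.72 ± 0.72) and Mmp20 above Klk4 by 0.88 to 1.92 (1.41 ± 0.53), each in 4 of 4 libraries. The other neighbours were not in the same order in every library. Amelx against Ambn (0.76 ± 1.15), Enam against Odam (0.94 ± 1.07) and Amtn against Mmp20 (0.23 ± 1.05) were in the opposite order in wild type 15 and in this order in the other 3 libraries. Each SD spans both genotypes and so holds any difference between them. Amelx against Ambn, for example, was at -0.67 and 0.32 (wild type) against 1.75 and 1.63 (mutant).

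Amelx took a larger share of the matrix transcripts, and Ambn a smaller one, in both mutant libraries. Together Amelx, Ambn and Enam had summed normalized counts of 1240.4 and 5602 (wild type) against 5374 and 1639.8 (mutant), which overlap. Of the length-scaled sum, Amelx made up 36.9% (wild type 15), 50.8% (wild type 20), 70.7% (mutant 18) and 72.9% (mutant 14). Ambn made up 58.6% and 40.7% (wild type) against 21.0% and 23.6% (mutant). For both genes the genotypes did not overlap, which with 2 libraries against 2 cannot be shown to exceed the spread by an exact test. Enam made up 4.46% and 8.50% (wild type) against 8.34% and 3.54% (mutant), which overlap.

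**Figure D4:**
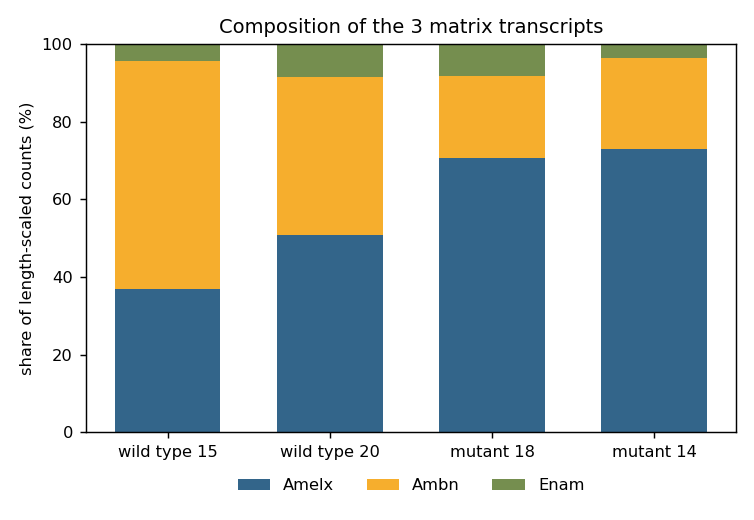
Stacked bars of the share, in percent, that Amelx (blue), Ambn (yellow) and Enam (green) take of their summed counts per kb of exon in each library. The blue part reaches 36.9% and 50.8% in wild type, 70.7% in mutant 18 and 72.9% in mutant 14.

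Ratios within a library hardly depend on the scaling between libraries, and 10 were compared between genotypes by an exact two-sided permutation test, which with 2 libraries against 2 cannot give a p under 0.33. The log2 ratio of Amelx to Ambn was -1.61 and -0.62 (wild type) against 0.81 and 0.68 (mutant), a difference of 1.86 (exact p = 0.33, 0.556 adjusted over the 10). Both mutant libraries lay above both wild-type libraries, so leaving out any 1 library could not turn the direction of the difference. With 1 library left out the difference ran from 1.37 to 2.35. The log2 ratio to Ambn did not overlap between genotypes for 5.15% of tested genes (4.68% higher and 0.467% lower in mutant). Amelx to Enam gave log2 ratios of 0.59 and 0.12 (wild type) against 0.62 and 1.90 (mutant), with a difference of 0.91 (exact p = 0.33), so that mutant 18 was barely above wild type 15, and the difference was 0.27 without mutant 14 and 1.55 without mutant 18. The ratio of Enam to Ambn overlapped (-2.20 and -0.74 in wild type, 0.18 and -1.22 in mutant, exact p = 0.667), and its difference of 0.95 was 0.22 without wild type 15, 0.25 without mutant 18, 1.68 without wild type 20 and 1.65 without mutant 14.

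The proteases stood lower against Ambn in both mutant libraries. The log2 ratio of Mmp20 to Ambn was -4.12 and -4.11 in the wild-type libraries, nearly equal although both genes differed several-fold in level between them. It was -4.47 and -5.67 in mutant 18 and 14 (difference -0.96, exact p = 0.33; -0.36 without mutant 14 and -1.56 without mutant 18). Klk4 to Ambn gave log2 ratios of -6.34 and -6.52 (wild type) against -7.59 and -8.48 (mutant), a difference of -1.60 (exact p = 0.33), and Klk4 to Mmp20 gave -2.22 and -2.41 (wild type) against -3.12 and -2.81 (mutant), a difference of -0.65 (exact p = 0.33). These rest on the low counts of Klk4. Odam and Amtn overlapped between genotypes relative to Ambn, at -4.07 to -3.58 and -6.88 to -5.44 over the 4 libraries.

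Of the 21 pairs that the 7 genes form, 16 had a log2 ratio whose genotypes did not overlap (76.2%), and 30.4% of all pairs of tested genes did not overlap. The pairs share genes and libraries, and the members vary together in a way most genes do not, so the backgrounds are not like for like. Amelx was higher in mutant relative to each of the other 6 members, where its ratio did not overlap for 3.77% of tested genes. Klk4 was lower in mutant relative to each of the other 6, but its ratio did not overlap for 87.6% of tested genes, so the count says little of Klk4 against the other members. Mmp20 was lower relative to 5 members and higher relative to Klk4 (12.3% of tested genes). Enam did not overlap with 4 of 6 members (0.807%), Amtn with 4 of 6 (1.48%) and Odam with 3 of 6 (5.57%).

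**Figure D5:**
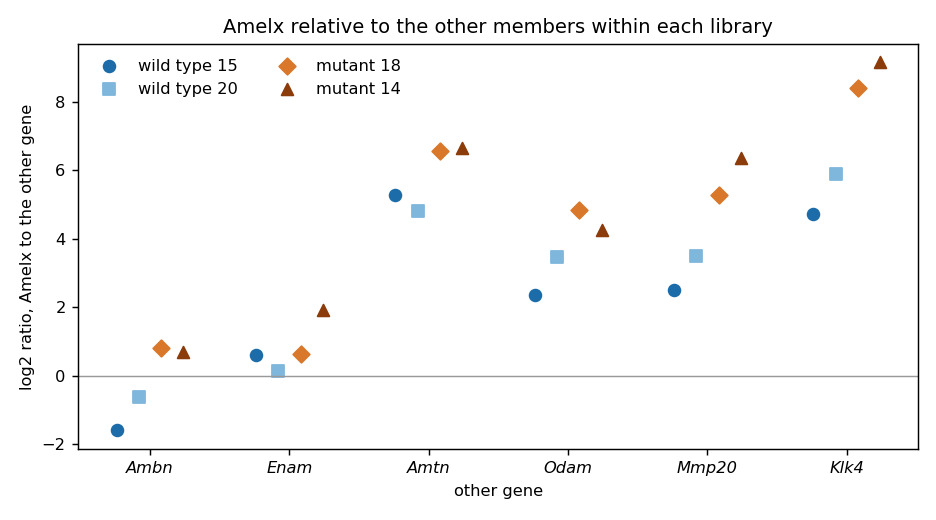
The log2 ratio of Amelx to each of the other 6 genes within each library, from log2(value + 0.5), with 1 point per library marked by shape and colour as named in the legend. Both mutant points are above both wild-type points for each of the 6, by the smallest margin for Enam, where wild type 15 is at 0.59 and mutant 18 at 0.62.

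Dspp, the gene of the main dentin proteins made by odontoblasts on the other side of the same tooth layer, was at 687 (wild type 15), 1346 (wild type 20), 1910.2 (mutant 18) and 629 (mutant 14). Libraries 20 and 18 were thus the higher ones for this odontoblast gene, but not for the sum of the fixed odontoblast markers. Dspp, Dmp1 and Nes together summed to 14492.5 and 15015 (wild type) against 13661 and 9467 (mutant). Of these sums Dmp1, a gene of bone as well as dentin, made up 9197 and 9940.2 (wild type) and 7026 and 4554 (mutant). The sum is therefore not particular to odontoblasts. In a list of 20 odontoblast and mineralised matrix genes, 5 had libraries 20 and 18 as the highest pair (22.1% of tested genes). Of these 20, 16 were lower and 4 higher in mutant, with 11 lower and 0 higher without overlap (27.4% of tested genes in either direction, 13.4% higher), a median log2 fold change of -0.33 and 0 passing (limma, 6 at an unadjusted p under 0.05, against 4.27% of tested genes). The log2 fold change of Dspp was 0.19 (SE 0.50, limma, adjusted p = 0.9999). The log2 ratio of Ambn to Dspp was 0.22 and 0.89 (wild type) against -0.47 and -0.22 (mutant), a difference of -0.90 (exact p = 0.33), with no overlap between genotypes. The difference was -0.57 without wild type 20 and as far as -1.23 without wild type 15.

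Genes of a dental epithelium list did not have that order of libraries. That list also holds general epithelial genes (Krt5, Krt14, Cdh1, Epcam and Trp63), so it is not particular to teeth. Sp6, a factor needed for ameloblast differentiation, was at 1378 and 1991 (wild type) against 952 and 1439 (mutant). In the dental epithelium list 0 of 22 members had libraries 20 and 18 as the highest pair (22.1% of tested genes). Of these 22, 13 were lower and 9 higher in mutant, and 0 passed (limma, 5 at an unadjusted p under 0.05, against 4.27% of tested genes). With no overlap 6 were lower and 3 higher, against 27.4% of tested genes in either direction, and the median log2 fold change was -0.12. Shh, a signal of the tooth epithelium, was at 371 and 684 (wild type) against 161 and 205 (mutant), with a log2 fold change of -1.47 (SE 0.30, limma, adjusted p = 0.365). The log2 ratio of Ambn to the mean of that list overlapped between genotypes (0.21 and 1.59 in wild type, 1.25 and -0.57 in mutant, exact p = 0.667), and its difference of -0.56 turned to 0.14 without wild type 20 and to 0.35 without mutant 14.

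General epithelial markers did not have the order of the enamel genes. The 7 fixed markers of epithelium summed to 28130 and 45807 (wild type) against 43557 and 53462 (mutant), so library 14, with low enamel transcripts, held the highest sum. Krt14, the keratin of basal epithelial cells, was at 5171 and 9640.2 (wild type) against 9235 and 10557 (mutant). The part of such epithelium in the enamel gene values was not tested. The 5 fixed osteoblast markers summed to 97226 and 109903 (wild type) against 106502 and 69543 (mutant). For that sum, libraries 20 and 18 were the highest pair. The genes of the osteoblast list, which shares genes with the odontoblast list, mostly did not follow it. Of its 9 genes, 8 were lower and 1 higher in mutant, and 0 passed (limma). With no overlap 4 were lower (Sp7, Dmp1, Runx2 and Alpl) and 0 higher, against 27.4% of tested genes in either direction. In that list 4 of 9 had libraries 20 and 18 as the highest pair (22.1% of tested genes). In the cartilage list 0 of 6 had it, and in the skeletal muscle list 0 of 6.

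Other genes tied to ameloblasts or to inherited enamel defects were not uniform. Of 21 in the list, all tested (Msx2, Dlx3 and Sp6 are in the dental epithelium list too), 12 were lower and 9 higher in mutant, with 6 lower and 6 higher without overlap (27.4% of tested genes in either direction) and 0 passing (limma, 7 at an unadjusted p under 0.05, against 4.27% of tested genes). Libraries 20 and 18 were the highest pair in 3 of them (22.1% of tested genes). The 4 with the smallest p were Msx2, a homeobox factor (473 and 549.5 against 286 and 305, log2 fold change -0.79, limma, adjusted p = 0.410), Slc13a5, a citrate transporter (-0.67), Vwa2, a basement membrane protein (-1.14), and Tuft1, which encodes tuftelin (0.73).

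Other proteases and their inhibitors were tallied from a list of 28 metalloproteinases, kallikreins and inhibitors, of which 26 were tested. There 16 were higher and 10 lower, with 8 and 3 of them without overlap (27.4% of tested genes in either direction, 13.4% higher), and 0 passed (limma, 5 at an unadjusted p under 0.05, against 4.27% of tested genes). The kallikreins of that list, set apart after their values were seen, had 11 of 12 members tested. All 11 had a log2 fold change above 0 (from Klk1, 0.05, upward, median 0.58), where 49.4% of tested genes were below 0. Of the 11 kallikreins, 6 were higher without overlap (13.4% of tested genes). None of the 11 passed (limma, 4 at an unadjusted p under 0.05, against 4.27% of tested genes). Klk4 lay below 0, and the difference between it and them was not tested. Klk5, the protein-coding neighbour of Klk4, was at 244 and 199 (wild type) against 397 and 541 (mutant), with a log2 fold change of 1.07 (SE 0.22, limma, adjusted p = 0.367). Klk7, another kallikrein of shedding epidermis, was at 616 and 767 (wild type) against 1574 and 1624 (mutant), with one of 1.22 (SE 0.15, limma, adjusted p = 0.221). Their inhibitor Spink5 had a log2 fold change of 0.90 and Klk11 one of 0.96. These 4 had the smallest p of the list. The 5 keratinocyte markers summed to 62353 and 44676 (wild type) against 104532 and 173578 (mutant), and their part in the values of the kallikreins was not tested.

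Secreted calcium-binding phosphoproteins, the family to which the matrix and adhesion genes belong, and related genes had 9 of 14 listed members tested. Of these, 5 were higher and 4 lower in mutant, with 0 higher and 2 lower without overlap (27.4% of tested genes in either direction). None passed (limma, 1 at an unadjusted p under 0.05, against 4.27% of tested genes). Libraries 20 and 18 were highest in 5 (22.1% of tested genes). Spp1, which encodes osteopontin, was at 61080.4 and 93203 (wild type) against 82045 and 37150.5 (mutant). Dmp1, a bone and dentin matrix gene, was at 9197 and 9940.2 (wild type) against 7026 and 4554 (mutant), with a log2 fold change of -0.76 (SE 0.21, limma, adjusted p = 0.685).

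The genes most like the mean log2 level of Amelx, Ambn and Enam across the 4 libraries were found among 786 genes with a mean of at least 50 and a log2 range of at least 1. The 8 with the highest Pearson r were Calb1 (0.998), Klk1 (0.990), Wfdc1 (0.984), Mt4 (0.983), S100a1 (0.982), Plb1 (0.979), Mt2 (0.976) and Krtap8-1 (0.969). Calb1, a cytosolic calcium-binding protein, was at 196 and 542 (wild type) against 576 and 247 (mutant). Mt4, a metallothionein of stratified epithelium, was at 14.7 and 87.3 (wild type) against 70.1 and 28.4 (mutant). Dspp had an r of 0.931. With 4 points from the same libraries, r is a description and carries no test.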

How the data were processed

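Per the labels, column-extracted RNA of mouse mandibular dental arch was made into 4 stranded polyadenylated libraries. The deposited values are a normalized count signal per gene, and per the submitters' processing notes DESeq2 and mm10 were used. For the aligner, counter, strand setting and annotation: not given in the sources used here. Of values above 0 and under 200, 51.0% to 58.1% are whole multiples (within 0.1) of their library's commonest low value, so reads were not recovered and intervals from counts are not given.

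The deposited normalized counts were taken as log2(value + 0.5). Rows averaging 1 or more (17979 of 24972) were fitted on genotype with limma 3.58.1 in R 4.3.3 (trended, moderated variances), with Benjamini-Hochberg adjustment over all of them and a threshold of 0.05. The fit was tested on simulated data with the spread of a typical gene, which is smaller than that of the members, so that test does not bear on them. This scale understates changes of low genes. The codes 15, 20, 18 and 14 are not shared between genotypes, so nothing was paired. One alternative scaled by a trimmed mean of M values. Named genes were the members, the 4 smallest p per list, 6 genes fixed by name, 8 by likeness, and neighbours. Not every gene so taken is described. Members and lists were chosen with earlier results of these data known. Promoters are from RefSeq and exon lengths from GENCODE M21.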

Additional observations from a re-analysis of the deposited data

How the results depend on the processing

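In all 14 alternatives 0 of the 7 members passed. The number of genes called (2) was 4 with pseudocount 1, 1 with no filter, 1 without the variance trend, 4 with robust variances, 0 with sex as a covariate, 5 with the dental epithelium mean as a covariate, and 0 to 6 with 1 library left out. The median of the members (-0.49) was -1.53 with sex as a covariate and -1.53 to 0.27 with 1 library left out. With sex as a covariate Amelx turned to -0.16 and Enam to -1.30, and with dental epithelium Enam turned to -0.042. These 2 fits have 1 residual degree of freedom, and sex sets library 15 apart as leaving it out does. With 1 library left out, where the lone library of a genotype is assumed to vary like the others, the log2 fold change ran from -0.16 to 2.46 for Amelx, -1.53 to 0.11 for Ambn, -1.30 to 1.78 for Enam, -1.96 to 1.11 for Amtn and -1.26 to 0.27 for Odam. Mmp20 (-2.95 to -0.39) and Klk4 (-3.44 to -1.19) stayed below 0. The difference in log2 ratio ran from -1.46 to 0.35 for Ambn to dental epithelium, -0.0080 to 0.44 for Odam to Ambn and -0.43 to 1.01 for Amtn to Ambn, and the other 7 ratios kept their direction. Where the genotypes do not overlap, leaving out 1 library cannot turn the direction. That was so for Klk4 and, of those 7 ratios, for all but Enam to Ambn, so their direction was fixed in advance. The cause of these changes was not tested beyond the libraries named. The ratios of Klk4, Odam and Amtn, and the count over 21 pairs, were added after seeing the data. No paired analysis was possible because the genotypes share no replicate numbers. Low counts limit Klk4, at 1.02 in mutant 14, whose log2 fold change was -2.11 to -2.54 over the numbers added.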
